A study of Mus musculus with 6 samples.

Results

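The genes described here are 38 mouse genes of DNA repair that act on broken strands, on lesions left by ultraviolet light and on damaged bases. They were taken from a list of gene symbols and found on the arrays through the RefSeq accession of each probe, and they were represented by 48 of 55681 probes. Of the 38, 37 could be tested, among 18368 genes tested in all. The samples were melanocyte stem cells, the reserve cells from which the hair follicle renews its pigment cells. They were sorted from skin of male mice as GFP-positive cells with low side scatter, the side scatter being a measure of the granularity of a cell. Of the 6 samples 3 were labelled WT, and the 3 K14-SCF Tg samples carried a transgene for stem cell factor (SCF), which binds and activates KIT on melanocytes, under the keratin 14 promoter, which is active in basal keratinocytes, so the sorted cells themselves are not the cells that the promoter is known for. GFP was used to sort both genotypes, and the labels do not say what drives it. No irradiation or other damaging agent, no age and no strain was named in the labels, and the labels do not tell whether each sample of a genotype stands for its own mouse. The p-values below therefore measure the spread between samples, which may be partly technical.

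Cells mend different kinds of damage by different routes. Double-strand breaks are sensed by kinases that stop the cell cycle, and are then either rejoined end to end or copied from the sister chromatid by homologous recombination. Bulky lesions such as those of ultraviolet light are cut out with a stretch of the strand by nucleotide excision repair, whereas oxidised bases and single-strand breaks pass through base excision repair. Pigment cells meet both ultraviolet light and the oxidants that arise while melanin is made, and double-strand breaks are known to drive melanocyte stem cells in the follicle into premature differentiation.

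Levels are given as log2 of the processed signal of a probe over the array's 75th percentile, so that 0 is a signal equal to that percentile and each unit is a doubling. A gene's value is that of its brightest tested probe, and differences are K14-SCF Tg minus WT. Levels of different genes were not compared, because probes differ in how strongly they bind.

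The arrays measured melanocytes by their markers: all 12 melanocyte markers, among them Dct, Tyr, Mitf and Kit, were well above background on every array, with a summed linear level of 292 to 382 in WT and 283 to 334 in K14-SCF Tg. Between 78.4% and 87.1% of probes were well above background per array, WT replicate 3 having the fewest and K14-SCF Tg replicate 2 the most, and none were saturated. WT replicate 1 lay alone on slide 1 and the other 5 arrays on slide 2. WT replicate 3 and K14-SCF Tg replicate 3 lay in array row 2 of their slide and the other 4 in row 1. WT replicate 3 stood farthest from the others on the first principal component of all tested probes, which held 25.9% of the variance. The 10 fibroblast markers had a median difference of -1.65, 8 negative and 2 positive (Pdgfra at 1.27 and Fbn1 at 0.17). None passed the limma adjusted p of 0.05 (lowest 0.562), and 5 of 10 were lower at an unadjusted p under 0.05, where 2.48% of all genes were. Their summed level was 29.1 to 74.3 in WT and 10.02 to 23.3 in K14-SCF Tg. The part of this in the differences given below was not tested.

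Start regions were read for the genes on which the results turn, to show what kind of promoter they have. The table of promoters from RefSeq (assembly GRCm38.p6, whereas the probe design refers to mm9) held 31 of the 38 genes, and the 250 bases before the annotated start were searched. Ercc2 and Neil1 are shown because they were the members with a lower level at an unadjusted p under 0.05, and Ddb1 because its level varied least. Capitals mark matches, on either strand, to the letters GGGCGG (the GC box), to the CCAAT box and to TATAAA. They also mark the palindrome of the factor NRF1, searched as GCGC on both sides of any 2 bases. The Ercc2 window lies at chr7:19381767-19382016 on the plus strand, Neil1 at chr9:57148306-57148555 on the minus strand and Ddb1 at chr19:10605347-10605596 on the plus strand, each written 5′ to 3′ along the gene.
Ercc2: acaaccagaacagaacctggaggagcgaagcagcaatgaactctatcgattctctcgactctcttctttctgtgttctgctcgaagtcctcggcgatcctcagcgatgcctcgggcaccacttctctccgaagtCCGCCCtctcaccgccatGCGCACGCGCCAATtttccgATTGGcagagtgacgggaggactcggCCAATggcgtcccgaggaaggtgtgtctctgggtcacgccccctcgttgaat
Neil1: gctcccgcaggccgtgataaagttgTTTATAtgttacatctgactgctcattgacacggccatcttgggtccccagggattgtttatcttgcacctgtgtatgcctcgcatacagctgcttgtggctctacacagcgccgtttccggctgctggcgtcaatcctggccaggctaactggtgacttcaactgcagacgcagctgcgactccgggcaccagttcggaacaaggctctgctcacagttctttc
Ddb1: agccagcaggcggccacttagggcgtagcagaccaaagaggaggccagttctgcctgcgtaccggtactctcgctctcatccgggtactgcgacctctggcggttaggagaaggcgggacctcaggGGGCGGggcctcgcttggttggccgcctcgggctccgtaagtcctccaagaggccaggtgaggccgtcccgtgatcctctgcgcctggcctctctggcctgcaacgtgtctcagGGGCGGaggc

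The 3 windows differ in their matches. Ercc2 held 1 GC box, 3 CCAAT boxes and 1 NRF1 palindrome, the palindrome sharing 1 base with a CCAAT box. Ddb1 held 2 GC boxes and none of the other motifs. Neil1 held 1 TATAAA, on the other strand, and no GC box.

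Most members had promoters rich in CpG. The ratio of observed to expected CpG was above 0.6 for 25 of 31 members (80.6%), against 34.5% of all 27025 genes in the table and 45.2% of protein-coding genes. GGGCGG occurred in 19 of 31 members (61.3%; 35.4% of all genes), CCAAT in 15 (48.4%; 37.5%) and the NRF1 palindrome in 6 (19.4%; 5.64%). Among protein-coding genes these shares were higher than among all genes, at 45.8%, 39.5% and 7.72%. The letters TTTCCCGC, a site form of the E2F factors, occurred in Brca2, Chek2, Mdc1 and Xrcc6 (12.9%; 1.03%), and the other E2F form searched, TTTGGCGC, in none (all genes 0.485%). CACGTG, the palindromic E-box, occurred in 5 (16.1%; 6.86%), CCGGAAG, an ETS site, in 4 (12.9%; 7.83%) and TATAAA in 2 (6.45%; 14.3%). TCATGTG, part of the M-box that MITF binds, occurred in no member window and in 3.72% of all. Among protein-coding genes the shares were 1.35% for TTTCCCGC, 0.595% for TTTGGCGC and 7.61% for CACGTG. They were 10.2% for CCGGAAG, 13.7% for TATAAA and 3.11% for TCATGTG.

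Many members start close to another gene on the opposite strand. For 13 of 31 members (41.9%), another gene's start lay within 1000 bases upstream on the other strand, as for 12.3% of all genes and 13.2% of protein-coding genes in the same table. The distances ran from 37 bases between Lig4 and Abhd13 to 694 bases between Xrcc1 and Pinlyp. Atm lay 376 bases from Npat, a gene of histone transcription, and Brca1 152 bases from Nbr1, a receptor of autophagy. A match or a neighbour is a property of the sequence and was not tied to a measured difference.

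Between the genotypes, no member rose or fell past the threshold. None of the 37 had an adjusted p under 0.05 in limma (0.844 to 1.00), where 0.00544% of all genes, 1 gene, did. At an unadjusted p under 0.05, 2 members were lower in K14-SCF Tg, Ercc2 and Neil1, and none was higher, where the shares of all genes were 2.48% lower and 2.89% higher (5.37% in either direction). Each of the 20 alternative settings of the test also called none. The count of 2 was 1 with slide as a block, and 1 without WT replicate 1, WT replicate 2 or K14-SCF Tg replicate 1. Of the 37 differences 24 were negative (all genes 50.7%), and their median was -0.19 against -0.01 over all genes. The members' median was -0.48 without WT replicate 3, -0.106 without WT replicate 2 and -0.034 without K14-SCF Tg replicate 1. Because these are bulk samples, fewer cells of a type and less RNA per cell cannot be told apart.

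The arrays bound few of these differences closely. The 95% interval of the difference lay within a 2-fold change either way for 4 of 37 members, Mdc1, Xrcc5, Ddb1 and Lig1. This was a smaller share than the 32.3% of all genes. For the remaining members a change of 2-fold or more in at least one direction lay inside the interval.

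**Figure D1:**
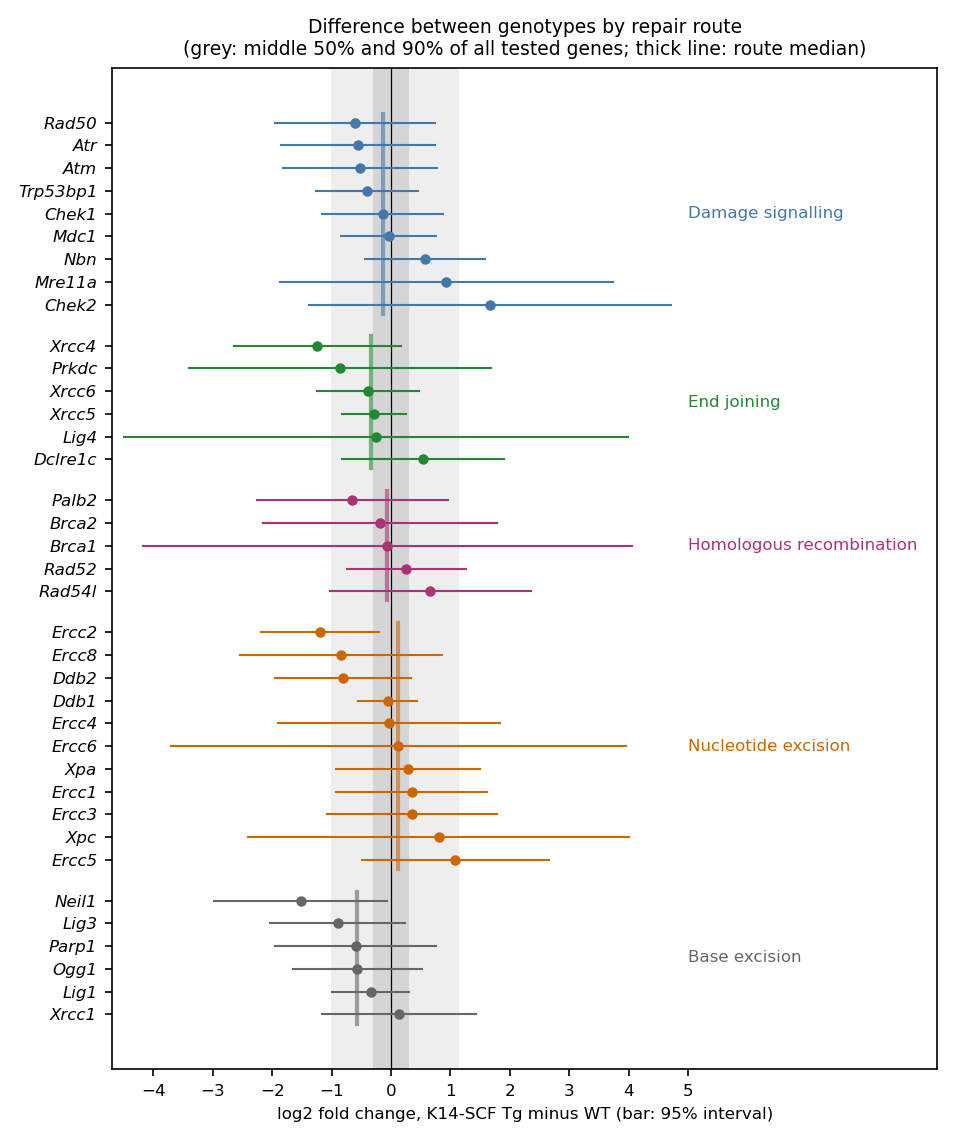
Log2 fold change of each member (points, K14-SCF Tg minus WT) with its 95% interval (bars), grouped by repair route, with the route median as a thick line and grey bands for the central ranges of all tested genes (-0.29 to 0.29 for the inner and -0.997 to 1.13 for the outer band). Only the intervals of Ercc2 (-2.18 to -0.21) and Neil1 (-2.97 to -0.07) leave out 0, and the route medians run from -0.58 for base excision to 0.12 for nucleotide excision repair.

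Among the 9 genes of damage signalling, 6 differences were negative and 3 positive, with a median of -0.14, which was -0.35 without WT replicate 3 and 0.07 without WT replicate 2. The group joins the sensor complex of Mre11a, Rad50 and Nbn, the apical kinases Atm and Atr, the chromatin adaptors Mdc1 and Trp53bp1, and the checkpoint kinases Chek1 and Chek2. Nbn, the subunit that brings Atm to a break, read -0.02, -0.27 and -0.84 in WT and -0.53, 0.44 and 0.67 in K14-SCF Tg, a difference of 0.57 (SE 0.41, limma adjusted p 0.972). K14-SCF Tg replicate 1 lay among the WT arrays, so the genotypes overlapped. Chek2, which passes the signal from Atm to p53, read -3.94, -6.00 and -7.73 in WT and -2.39, -5.89 and -4.39 in K14-SCF Tg. Its difference of 1.67, the largest positive one of the 37, had an SE of 1.24 (limma adjusted p 0.975). The Chek2 probe was not well above background on WT replicate 3, the lowest of the 6 values.

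Trp53bp1, which shields broken ends from resection, read 0.78, 0.11 and 0.60 in WT and 0.35, -0.48 and 0.42 in K14-SCF Tg (difference -0.40, SE 0.35, limma adjusted p 0.984). Replicate 2 was the lowest of each genotype. The remaining 6 genes of the group had differences from -0.61 for Rad50 to 0.93 for Mre11a. Mre11a, the nuclease of the sensor complex, lay below its other arrays on WT replicate 3 (-5.79, with the other 5 from -4.19 to -1.70), where its probe was not well above background.

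End joining reads broken ends with the Xrcc5 and Xrcc6 dimer (Ku), trims them with Dclre1c (Artemis) under the kinase Prkdc and seals them with Lig4 and its partner Xrcc4. Of these 6 genes 5 had a negative difference and 1 a positive one, with a median of -0.34, which became 0.11 without K14-SCF Tg replicate 1, -0.83 without K14-SCF Tg replicate 2 and -0.63 without WT replicate 1. Xrcc4 read -4.27, -3.52 and -5.61 in WT and -5.71, -5.32 and -6.10 in K14-SCF Tg, a difference of -1.24 (SE 0.57, limma adjusted p 0.928). WT replicate 3 lay below K14-SCF Tg replicate 2, and the probe was not well above background on replicate 3 of either genotype.

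The 2 Ku subunits were measured with less spread. Xrcc5 read -0.67, -0.72 and -0.99 in WT and -0.96, -1.22 and -1.07 in K14-SCF Tg (difference -0.29, SE 0.22, limma adjusted p 0.975). Only K14-SCF Tg replicate 1 and WT replicate 3 crossed. Xrcc6 read 0.97, 1.12 and 0.72 in WT and -0.09, 0.99 and 0.75 in K14-SCF Tg, a difference of -0.39 (SE 0.35, limma adjusted p 0.984) in which K14-SCF Tg replicate 1 stood below the other 5 arrays. Prkdc and Lig4 differed by -0.86 and -0.25 with SEs of 1.03 and 1.73, and the brightest Dclre1c probe by 0.53.

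Homologous recombination copies the sister chromatid: Brca1, Palb2 and Brca2 load the recombinase on the resected strand, Rad52 anneals strands and Rad54l remodels the joint, while Fancd2 marks crosslinks for repair. Of the 5 genes tested 3 had a negative and 2 a positive difference, with a median of -0.06. That median was 0.55 with slide as a block or without WT replicate 1, the only array of its slide, 0.38 without K14-SCF Tg replicate 1, 0.42 without K14-SCF Tg replicate 2 and -0.34 without WT replicate 3. Fancd2 could not be tested: its probe was well above background only on WT replicate 2 and K14-SCF Tg replicate 2, and its values ran from -6.97 to -4.79.

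Palb2 read -5.32, -3.38 and -5.07 in WT and -5.85, -5.51 and -4.36 in K14-SCF Tg (difference -0.65, SE 0.66, limma adjusted p 0.987), WT replicate 2 being the highest. Its sign turned positive under normexp background correction (0.25). Without K14-SCF Tg replicate 2 the other Palb2 probe was the brighter one, and the difference was 2.09. Rad54l read -2.03, -4.49 and -2.34 in WT and -2.66, -1.87 and -2.35 in K14-SCF Tg, a difference of 0.66 (SE 0.69, limma adjusted p 0.987). WT replicate 2 alone was low, and without it the difference was -0.11.

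Rad52 read 0.70, -0.45 and 0.10 in WT and 0.14, 0.05 and 0.94 in K14-SCF Tg (difference 0.26, SE 0.41, limma adjusted p 0.993). The genotypes overlapped, and the difference was -0.025 without WT replicate 2 and -0.023 without K14-SCF Tg replicate 3. Brca1 and Brca2 differed by -0.06 and -0.19, with SEs of 1.68 and 0.80. The Brca1 probe read -1.27 on WT replicate 1 and -7.84 on WT replicate 3, and it was not well above background on WT replicate 3 or K14-SCF Tg replicate 1.

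**Figure D2:**
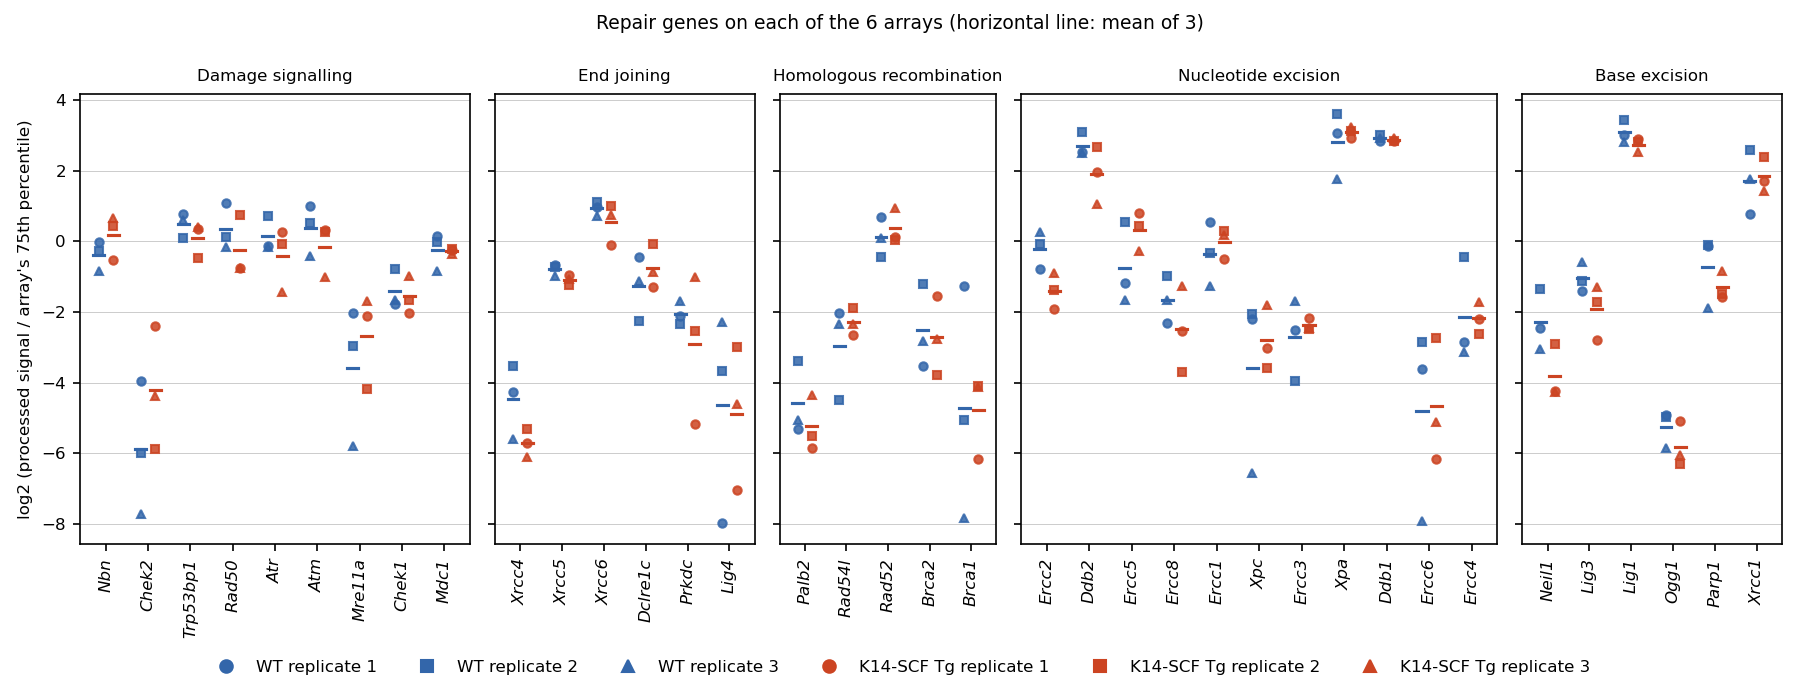
Level of each of the 37 tested members on each array (log2 of signal over the array's 75th percentile), in 1 panel per repair route, with WT and K14-SCF Tg in different colours, a marker shape per replicate and a line at the mean of 3. The genotypes overlap for every member but Ercc2, and genes such as Brca1, Lig4 and Ercc6 spread over several log2 units within a genotype.

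Nucleotide excision repair finds lesions with Xpc and with the ultraviolet damage binder of Ddb1 and Ddb2, or with Ercc6 and Ercc8 where transcription stalls. The helicases Ercc2 and Ercc3 open the strand, Xpa checks the lesion, and Ercc5 and the pair of Ercc1 and Ercc4 cut. Of the 11 genes 6 had a positive and 5 a negative difference, with a median of 0.12. That median was -0.54 without WT replicate 3, and without each of the other 5 arrays in turn it lay between 0.19 and 0.41.

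Ercc2, the XPD helicase of TFIIH whose inherited loss causes xeroderma pigmentosum, read -0.79, -0.07 and 0.26 in WT and -1.92, -1.37 and -0.90 in K14-SCF Tg. Every K14-SCF Tg array lay below every WT array, though the highest K14-SCF Tg and the lowest WT value were close together. The means were -0.20 ± 0.54 in WT and -1.40 ± 0.51 in K14-SCF Tg (SD, n = 3 each), a difference of -1.19 (SE 0.40, 95% interval -2.18 to -0.21), which is 2.29-fold lower. The unadjusted p was 0.0255 and the limma adjusted p 0.844, so the difference failed the correction. The difference was negative without any 1 of the 6 arrays (-1.49 to -0.93). Ercc2 was the only member whose genotypes did not overlap, where 5.28% of all genes were lower and 5.29% higher in that way. With 2 arrays in a genotype such a separation is more frequent: leaving out 1 array gave 3 to 10 members, and without WT replicate 3 it was 10 of 37 members and 23.1% of all genes in either direction.

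Ddb2, the subunit that binds ultraviolet photoproducts, read 2.54, 3.09 and 2.50 in WT and 1.98, 2.69 and 1.05 in K14-SCF Tg. The difference was -0.81 (SE 0.46, limma adjusted p 0.947), with K14-SCF Tg replicate 2 above 2 of the WT arrays. Its partner Ddb1 read 2.85, 3.01 and 2.95 in WT and 2.84, 2.85 and 2.95 in K14-SCF Tg, a difference of -0.06 (SE 0.20, 95% interval -0.55 to 0.44). This was the smallest spread of any member.

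Ercc5, the XPG nuclease that cuts 3′ of the lesion, read -1.17, 0.56 and -1.67 in WT and 0.80, 0.43 and -0.26 in K14-SCF Tg (difference 1.08, SE 0.64, limma adjusted p 0.947). WT replicate 2 lay with the K14-SCF Tg arrays. The other 7 genes of the route had differences from -0.84 for Ercc8 to 0.80 for Xpc. Xpc, Ercc6, Ercc1 and Xpa were each lowest on WT replicate 3, at -6.55, -7.92, -1.27 and 1.78. The Xpc and Ercc6 probes were not well above background on that array, nor was the Ercc6 probe on K14-SCF Tg replicate 1.

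Base excision repair starts with glycosylases such as Ogg1 and Neil1 that remove oxidised bases, and the nick is found by Parp1, held together by Xrcc1 and sealed by Lig3 or Lig1. Of these 6 genes 5 had a negative difference and 1 a positive one, and the median was -0.58. Leaving out 1 array at a time moved that median between -0.77 (without WT replicate 3) and -0.36 (without WT replicate 2).

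Neil1 read -2.45, -1.33 and -3.06 in WT and -4.24, -2.91 and -4.28 in K14-SCF Tg. K14-SCF Tg replicate 2 lay above WT replicate 3, so the genotypes overlapped. The means were -2.28 ± 0.88 in WT and -3.81 ± 0.78 in K14-SCF Tg (SD, n = 3 each), a difference of -1.52 (SE 0.59, 95% interval -2.97 to -0.07) or 2.88-fold lower. The unadjusted p was 0.0422 and the limma adjusted p 0.895, which fails the correction. Leaving out 1 array gave differences from -1.97 to -1.05. It was the largest negative difference of the 37.

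Lig3, the ligase that works with Xrcc1, read -1.42, -1.11 and -0.57 in WT and -2.79, -1.71 and -1.29 in K14-SCF Tg, a difference of -0.90 (SE 0.46, limma adjusted p 0.936). Only K14-SCF Tg replicate 3 and WT replicate 1 crossed. Lig1, the ligase of replication and long-patch repair, read 3.01, 3.44 and 2.82 in WT and 2.89, 2.83 and 2.52 in K14-SCF Tg (difference -0.34, SE 0.26, limma adjusted p 0.975). Parp1, Ogg1 and Xrcc1 differed by -0.59, -0.57 and 0.13. The route median lay between the differences of Parp1 and Ogg1. The Ogg1 probe was well above background only on WT replicates 1 and 2 and K14-SCF Tg replicate 1. Its values ran from -6.32 to -4.91.

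Where a gene had several tested probes, they often differed in sign. This held for 4 of 8 such members (50%), Atm, Dclre1c, Palb2 and Rad50, as for 45.4% of 4855 such genes over the whole array. The Atm probes gave -0.52 and 0.25, and the Rad50 probes -0.61 and 0.40. Both probes of Ercc8 (-0.84 and -0.87), Lig3 (-0.90 and -0.43), Trp53bp1 (-0.40 and -0.62) and Xpa (0.29 and 0.58) gave the same sign.

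Dclre1c had 4 tested probes, and 1 that was not the brightest held the lowest p of any member probe. This probe, chosen after its values were seen, carries the accession NM_175683 and read -3.26, -3.92 and -4.19 in WT and -2.33, -2.13 and -1.18 in K14-SCF Tg. The difference was 1.91 (SE 0.42, unadjusted p 0.00399, limma adjusted p 0.590), and every K14-SCF Tg array lay above every WT array. The other probe of that accession gave 1.09 (SE 0.58), and the 2 probes of NM_146114 gave 0.53 (SE 0.56) and -0.45 (SE 0.82). The sign of the gene's difference therefore varied by probe.

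**Figure D3:**
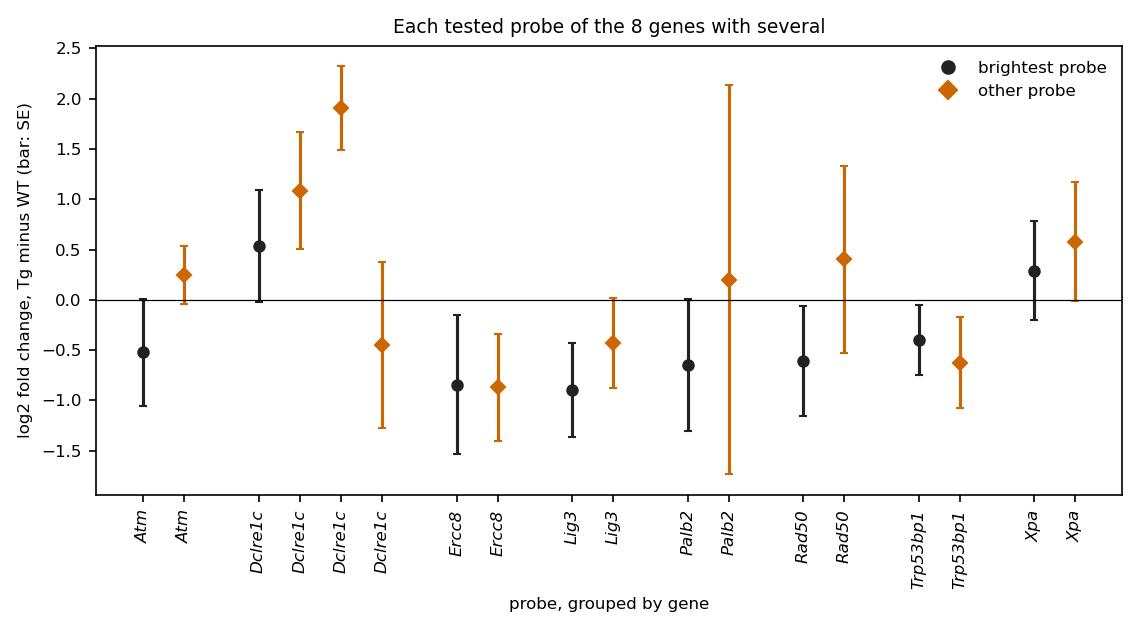
Log2 fold change (K14-SCF Tg minus WT, bars for SE) of each tested probe of the 8 members with several, the brightest probe of each gene in black and the others in orange. The 4 Dclre1c probes run from -0.45 to 1.91, and the probes of Atm, Palb2 and Rad50 lie on both sides of 0.

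Replicates of one genotype lay far apart for many members. The SD between replicates, pooled over both genotypes, was above the median of all genes of like brightness (4 bins of equal size) for 27 of 37 members (73.0%). In the dimmest bin the 7 members had a median SD of 1.83 against 0.65 for all genes, and in the brightest the 5 members had 0.63 against 0.30. In the middle bins the members' medians were 0.99 for 11 genes and 0.62 for 14, against 0.67 and 0.53. The widest were Lig4 (2.55), Brca1 (2.48) and Ercc6 (2.30), and the narrowest Ddb1 (0.07) and Xrcc5 (0.15). The median SE of the genotype difference was 0.55 over the members and 0.38 over all genes.

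**Figure D4:**
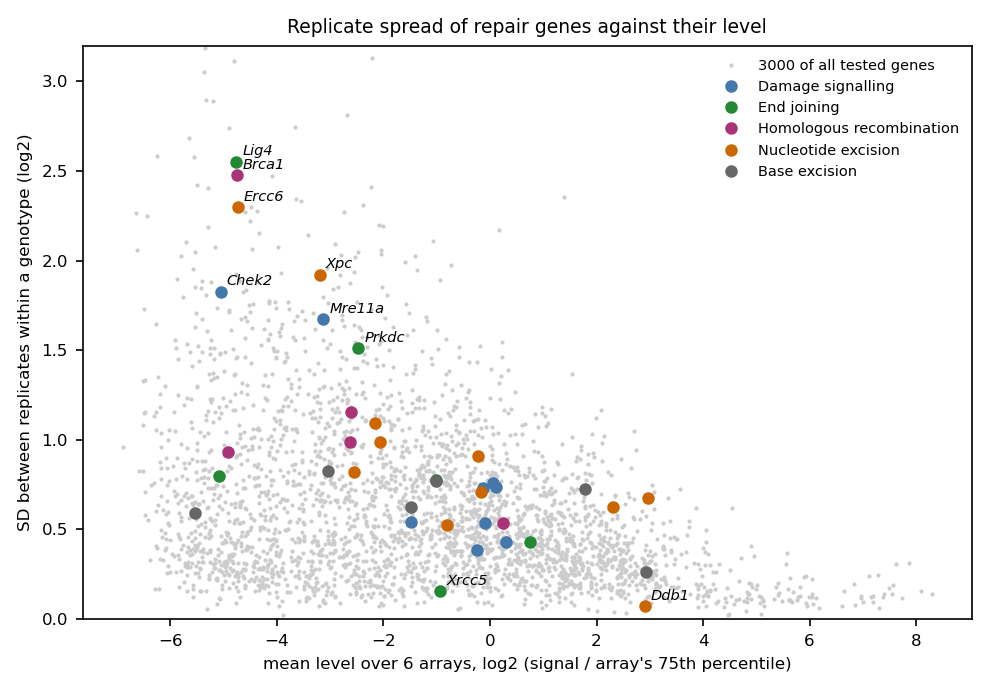
Pooled SD between replicates within a genotype (log2 units) against the mean level over 6 arrays (log2 of signal over the 75th percentile), with members coloured by repair route over a grey sample of all tested genes. Most members lie in the upper part of the grey cloud, with Lig4 highest at 2.55 and Ddb1 lowest at 0.07.

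Of the 6 arrays, a pair of WT arrays held many of the extremes. WT replicate 3 was the lowest array for 12 of 37 members (32.4%; 20.1% of all genes), and WT replicate 2 the highest for 15 (40.5%; 19.9%). In nucleotide excision repair WT replicate 3 was lowest for 6 of 11 genes and WT replicate 2 highest for 5. The median deviation of these 11 genes from their own means was -0.97 on WT replicate 3 and 0.78 on WT replicate 2, and between -0.07 and 0.09 on the 3 K14-SCF Tg arrays. WT replicate 2 was also highest for 4 of the 6 genes of base excision repair, where the median deviations were 0.34, 0.69 and -0.06 in WT and -0.31, -0.16 and -0.37 in K14-SCF Tg.

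Detection was also lowest on WT replicate 3. Of the 38 members 30 were well above background on WT replicate 3. The counts were 36 and 38 on the other WT arrays and 34, 37 and 35 on the K14-SCF Tg arrays. Over all probes WT replicate 3 was likewise lowest, with 78.4% well above background against 83.5% to 87.1% on the other arrays. Of the 8 tested members that missed background on at least 1 array, 7 missed it on WT replicate 3. The fibroblast markers did not share this order: their median deviations were 1.19, 0.62 and 0.14 in WT and 0.01, -0.82 and -0.94 in K14-SCF Tg.

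**Figure D5:**
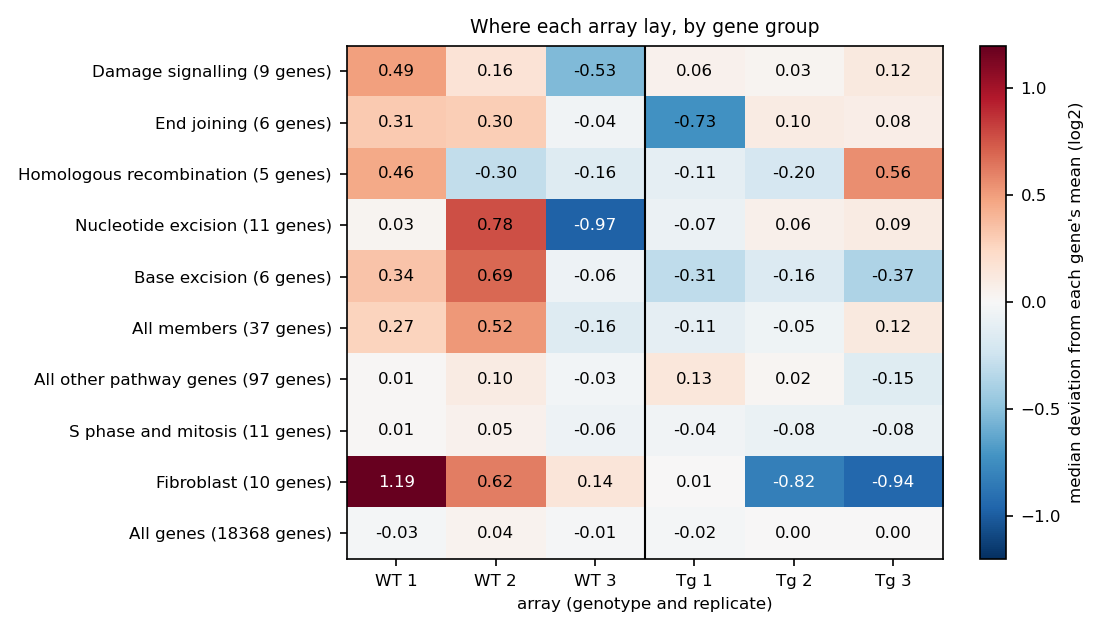
Median deviation from each gene's own mean over the arrays (colour, log2 units) for each repair route, the reference lists and all genes, by array. Nucleotide excision repair is at 0.78 on WT replicate 2 and -0.97 on WT replicate 3, while fibroblast markers are at 1.19 on WT replicate 1 and at -0.82 and -0.94 on K14-SCF Tg replicates 2 and 3.

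Row 2 held replicate 3 of each genotype, so row and replicate number cannot be told apart. With genotype in the fit, no member and no gene of the array (0%) had an adjusted p under 0.05 in limma for row 2 against row 1. At an unadjusted p under 0.05, 2 members were lower in row 2 and none higher, with 7.1% of all genes lower and 4.32% higher. Atm, the kinase that answers double-strand breaks, read 1.01, 0.53 and -0.41 in WT and 0.31, 0.25 and -1.01 in K14-SCF Tg, a row difference of -1.24 (SE 0.24, unadjusted p 0.00416, limma adjusted p 0.377). Both arrays of row 2 lay below the 4 of row 1, whereas the genotypes overlapped (difference -0.52). This row pattern held for the brightest Atm probe only. The other tested Atm probe read -0.29, -0.84 and -0.58 in WT and -0.72, -0.19 and -0.05 in K14-SCF Tg. On that probe the arrays of row 2 did not lie below those of row 1.

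Xrcc4 was the other, at -1.15 (SE 0.40, limma adjusted p 0.473). Its probe was not well above background on either array of row 2. The next 3 members in order of p were Atr at -0.99 (SE 0.41), Ercc2 at 0.72 (SE 0.32) and Lig3 at 0.83 (SE 0.38), with unadjusted limma p-values of 0.0623, 0.0776 and 0.0831. The median row difference was -0.37 over the members and -0.01 over all genes. Ercc2 was thus higher in row 2 in both genotypes, and its genotype difference was negative with row as a covariate.

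Of 99 further genes of the same pathways 97 were tested, Rad51c and Neil3 not being above background on enough arrays. None passed an adjusted p of 0.05 in limma. At an unadjusted p under 0.05, 3 were higher and 1 lower, where 2.89% of all genes were higher and 2.48% lower. The median difference of the 97 was -0.01, with 46 positive and 51 negative. Among the higher were Nhej1 (1.18, SE 0.43), the XLF factor that supports Lig4 and Xrcc4, and Fanca (1.16, SE 0.40) of the Fanconi core complex, with limma adjusted p-values of 0.877 and 0.863. For both of these genes every K14-SCF Tg array lay above every WT array. Of the 97 genes, 5 were higher and 3 lower in that way, where 5.29% of all genes were higher and 5.28% lower.

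Mgmt, which takes methyl groups directly off guanine, was the lower one. It read -0.11, 0.72 and -2.09 in WT and -3.16, -4.18 and -2.47 in K14-SCF Tg, a difference of -2.77 (SE 0.82, 95% interval -4.79 to -0.76, limma adjusted p 0.773). The genotypes did not overlap, with WT replicate 3 and K14-SCF Tg replicate 3 nearest to each other. Of the same list of lesion bypass and direct reversal, 11 genes with a median of 0.14, Alkbh2 came next at 0.47.

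In mismatch repair, the correction of replication errors, 5 of 7 genes had a negative difference and the median was -0.29. Pms2, a subunit of a MutL complex, differed by 0.97 (SE 0.57, limma adjusted p 0.947). In the other lists the medians were -0.03 for 13 genes of damage signalling, -0.04 for 7 of end joining, 0.00 for 16 of homologous recombination, -0.14 for 12 of crosslink repair, -0.06 for 16 of nucleotide excision repair and -0.01 for 15 of base excision repair. Rif1 (-1.11) and Paxip1 (0.92) led damage signalling, Nhej1 and Dntt (0.42) end joining, Brip1 (1.24) and Xrcc2 (-0.91) homologous recombination and Fanca and Fanci (1.1) crosslink repair. In nucleotide excision repair Mnat1 differed by -0.92, and Polb (-0.91) and Mbd4 (-0.60) led base excision repair.

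Genes that mark dividing or damaged cells were read beside the repair genes, since several of these rise in S phase or after p53 is activated. The 11 tested genes of S phase and mitosis had a median difference of -0.05, with 4 positive and 7 negative. Their summed levels were 23.9 to 25.5 in WT and 21.5 to 23.4 in K14-SCF Tg. Most of each sum came from Pcna (3.82 to 4.17 over the 6 arrays) and Mcm6 (2.38 to 2.80), so the sums say little about the other genes. Mki67, with the smallest unadjusted limma p of the list, differed by -0.93 (SE 0.48). The 13 tested targets of p53 had a median of 0.00 and summed levels of 55.3 to 85.5 in WT and 48.9 to 68.9 in K14-SCF Tg. None of either list had an unadjusted limma p under 0.05. Of the 13 targets of p53, 7 had a positive difference and 6 a negative one. Phlda3 (1.41, SE 0.73) and Plk2 (0.44, SE 0.23) had the smallest unadjusted limma p. Cdkn1a, the cell cycle inhibitor that p53 induces, differed by -0.39 (SE 0.46).

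Of other cells in skin, 10 keratinocyte markers had a median difference of -0.15, with 4 positive and 6 negative. Their summed levels were 116 to 146 in WT and 135 to 144 in K14-SCF Tg. Most of each sum came from the Trp63 probe (6.75 to 7.13 over the 6 arrays), so the sums say little about the other markers. Krt17 was higher in K14-SCF Tg without overlap (2.18, SE 0.72, unadjusted limma p 0.024, adjusted p 0.841). The median was 0.15 for 9 leukocyte, -0.80 for 6 endothelial and 0.22 for 6 Schwann cell markers. Of 6 mast cell markers 3 were tested, with a median of 0.41 and summed levels of 0.298 to 0.548 and 0.489 to 0.671, while the defining Cpa3, Fcer1a and Ms4a2 were not above background on enough arrays. Their part in the repair genes' values was not tested.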

How the data were processed

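Total RNA of 6 samples (3 WT, 3 K14-SCF Tg) was hybridised to 1-colour Agilent arrays. Agilent Feature Extraction 10.7.1.1 read the spots, per the submitters' processing notes and the file headers. Per the file headers, the intensity values are processed signals, background-subtracted per array with no scaling across arrays, and the median signal and background; flags per spot are deposited as 0 or 1. The authors also deposited a linear ratio table, which equals the processed signal over 1 constant per array (1404.6 to 1678, at least 99.87% of values within 0.002 of it, medians 0.169 to 0.188). The sources used here do not define the constant.

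Control and outlier spots were left out and spots of a probe averaged. Each processed signal was divided by its array's 75th percentile and taken to log2. The 47709 probes flagged as above background on 3 or more of 6 arrays were tested with limma 3.58.1 in R 4.3.3 (lmFit, eBayes, 2-sided, no covariates) and Benjamini-Hochberg adjustment over all of them, threshold 0.05; the fit was tested on simulated data. Of 29786 probes with a RefSeq accession 28331 were named through a GRCm38.p6 table. Signal over background and 3 arrays per genotype limit the precision. Members and gene lists were chosen with earlier results of these data known, so no list was tested. Given in full are the 3 members of each route with the smallest unadjusted p and those whose genotypes did not overlap; for each other list the 2 genes with the smallest p (some of these are not reported here), and for slide row the 5 members with the smallest p. Other genes named are named for their role or range, after their values were seen.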

Additional observations from a re-analysis of the deposited data

How the results depend on the processing

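No member was called under any of 20 alternatives to the main setting. Ercc2 was lower in K14-SCF Tg in all 20 (-1.49 to -0.93, unadjusted limma p under 0.05 in 16), and Neil1 in all 20 (-1.97 to -1.002, 13). Members at an unadjusted p under 0.05 (2 in the main setting) numbered 1 under normexp background correction with the 75th percentile and under slide as a block, 4 with a gene's probes averaged, 4 without slide row 2 (an alternative chosen after seeing the data), and 1 to 3 when 1 array was left out. The replicate block gave 4. In the settings just named, 4.52% to 6.19% of all genes had an unadjusted limma p under 0.05. The deviations of same-numbered arrays correlated at 0.02, 0.05 and 0.16, the last being the highest of all pairs of a WT and a K14-SCF Tg array. WT replicate 1 correlated best with K14-SCF Tg replicate 2. With 3 arrays per genotype these values cannot settle whether the replicate numbers pair the samples. Members whose genotypes did not overlap (1, with 10.6% of all genes) numbered 3 under quantile normalization, normexp, normexp with quantile normalization and averaged probes. They numbered 4 under median centring. The share of all genes in these settings was 10.3% to 11.6%. The counts were 14 without slide row 2 (36.2% of all genes) and 3 to 10 when 1 array was left out (18.1% to 23.1% of all genes). The median of all members was -0.49 without slide row 2 and -0.48 to -0.034 when 1 array was left out. By route, that of homologous recombination was 0.55 with slide as a block and -0.34 to 0.55 without 1 array, that of base excision repair -0.87 without slide row 2, and those of end joining and nucleotide excision repair -0.83 to 0.11 and -0.54 to 0.41 without 1 array. Of 298 values for named members 7 changed sign: Palb2 under normexp (0.25), normexp with quantile normalization (0.28) and without K14-SCF Tg replicate 2 (2.09), Rad54l without WT replicate 2 (-0.11), and Rad52 without WT replicate 2 (-0.025), K14-SCF Tg replicate 3 (-0.023) or slide row 2 (-0.032). Without 1 array these 3 ranged from -1.16 to 2.09, -0.11 to 1.12 and -0.025 to 0.55. The 2.09 of Palb2 was read on its other probe, which was the brighter one without K14-SCF Tg replicate 2. The normexp settings kept all 6 arrays, and the other settings with a changed sign had fewer. What caused the changes of sign was not tested. Chek2 and Xrcc4 had no value with probes above background on all 6 arrays.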
